A study of Mus musculus with 8 samples.

Results

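The insulin-like growth factor (IGF) genes studied here are Igf1, which encodes the growth factor, Igf1r, which encodes its receptor, and Igfbp1 to Igfbp7, which encode IGF binding proteins. The members were taken by name, as every non-control probe of the array whose transcript identifier is a RefSeq transcript of these genes. That gave 13 probes for 9 genes, on 17 spots of each array, out of 55681 non-control probes, where 20887 gene symbols could be matched. Of these, 12 probes of 8 genes were bright enough to test, among 31667 probes in all, and the Igfbp7 probe was not.

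Kidneys of C57BL/6 mice at birth (postnatal day 0) were the source of the cells. They were cells of the ureteric bud, the epithelial tube that branches into the collecting ducts, collected by flow sorting for GFP. The series set 4 wild-type samples (WT) against 4 conditional knockouts (KO) in which Dot1 had been removed from cells positive for Hoxb7, a gene of the ureteric bud. Dot1l encodes the methyltransferase of lysine 79 of histone H3. The promoter behind the GFP, whether WT animals carried any part of the deletion system, and the number of animals in a sample are not given in the sources used. Replicates are called biological in the series, without animals or litters, so each p-value measures only how these samples scatter.

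IGF1 and IGF2 are secreted growth factors that act through IGF1R, a receptor tyrosine kinase which signals through insulin receptor substrates to the PI3 kinase and AKT pathway and to the MAP kinases. Most IGF outside cells is held by a binding protein. The binding proteins limit access to the receptor or carry the factor to it, and proteases such as PAPP-A and HTRA1 cut them and set the factor free. In the developing kidney, IGF signalling is known for its part in growth and branching of the ureteric bud.

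The question for these genes was whether their transcripts differed between KO and WT ureteric bud cells. Every array carried 1 sample in Cy5 beside the RNA of WT 3 in Cy3, and values are log2 ratios of Cy5 to Cy3. On the array of WT 3 both dyes carried the same RNA, yet its ratios were not 0. For the brighter Igfbp2 probe that array gave 0.50 and for Igfbp3 it gave -0.26, so a ratio of 0 is not the level of WT 3, and only differences between arrays are compared here. No dye was swapped, and the cause of these ratios was not tested.

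No member passed limma's test between KO and WT at an adjusted p of 0.05. Of all tested probes 0.00632% passed (2 of 31667), against which 0 of 12 member probes does not stand out. Igf1r and Igfbp1 lay higher on every KO array than on every WT array, with log2 differences of 0.46 and 0.37. Igfbp2, at both of its probes, lay above every WT array on KO 1, KO 2 and KO 4, with differences of 0.67 and 0.61. Igf1, Igfbp3, Igfbp4, Igfbp5 and Igfbp6 overlapped between the groups, with differences on both sides of 0.

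The start regions of the 3 genes with the KO arrays above or largely above the WT arrays are shown first, since they are the members the values below turn on. Each line gives the 250 bases before the transcript start, on the strand of the gene, from RefSeq (GRCm38.p6). Entries were found for 9 of 9 member genes, and Igfbp2 has more than 1, of which the upstream one is shown. Capitals mark GGGCGG, the core of the GC box, in Igf1r and Igfbp2, and CAAAACA, the core of the insulin response sequence, in Igfbp1.
Igf1r (chr7:67952007-67952256, plus strand): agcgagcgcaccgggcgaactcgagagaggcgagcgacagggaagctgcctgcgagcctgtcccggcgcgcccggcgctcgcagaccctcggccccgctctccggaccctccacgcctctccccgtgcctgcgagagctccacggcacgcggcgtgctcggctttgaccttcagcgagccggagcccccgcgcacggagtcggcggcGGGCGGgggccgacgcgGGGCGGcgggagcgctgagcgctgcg
Igfbp1 (chr11:7197537-7197786, plus strand): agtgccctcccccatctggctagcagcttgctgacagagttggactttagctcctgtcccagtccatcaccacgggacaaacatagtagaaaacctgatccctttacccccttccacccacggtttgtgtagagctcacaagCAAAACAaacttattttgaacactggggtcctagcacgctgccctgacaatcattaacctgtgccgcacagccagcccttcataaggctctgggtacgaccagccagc
Igfbp2 (chr1:72824230-72824479, plus strand): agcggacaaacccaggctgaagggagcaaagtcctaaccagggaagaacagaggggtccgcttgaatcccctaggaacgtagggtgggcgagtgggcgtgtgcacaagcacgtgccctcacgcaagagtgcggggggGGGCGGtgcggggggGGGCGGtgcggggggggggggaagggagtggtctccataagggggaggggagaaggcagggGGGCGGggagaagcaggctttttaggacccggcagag
The Igf1r window was 77.6% G and C, richer than 97.6% of the 32851 windows of this length, and held 2 copies of GGGCGG. The Igfbp2 window shown was 67.2% G and C with 3 copies, while the downstream Igfbp2 window, not shown, was 56.4% with 0 copies. The Igfbp1 window was 53.2% G and C, close to the median of 52.4%, and held CAAAACA once, starting 108 bases before the start. Both strands were searched. Of all windows 32.7% hold GGGCGG and 5.56% hold CAAAACA, and none of these motifs overlapped another here. TATAAA, found in 12.4% of windows, and the FoxO core GTAAACA, found in 3.17%, were not in these 3 windows. A high share of G and C was not particular to them. The windows of Igfbp3, Igfbp4 and Igfbp7, not shown, had 73.2%, 69.2% and 74.0%, the last with 4 copies of GGGCGG. Those of Igf1, Igfbp5 and Igfbp6 had 52.8%, 58.8% and 49.6%. A match is a run of letters, and no binding was measured.

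The arrays differed in ways that touch every value below. The first principal component of all probes took up 55.6% of the variance. On it the WT arrays fell between -28.65 and -20.70 and KO 2 lay among them at -21.89, while KO 1, KO 3 and KO 4 lay at 40.85, 27.14 and 54.76. The median Cy5 signal of all spots was 122, 137, 636 and 126 on KO 1 to KO 4 and 93.5 to 107.5 on the WT arrays, so each KO array was brighter than each WT array. KO 3 was the brightest, with 95.2% of spots well above background in Cy5 against 52.4% to 68.9% on the others, and 7665 outlier-marked spots against 175 to 216. Its Cy3 signal, which is the same WT 3 RNA on all arrays, was 1.00 to 1.53 times the mean of the other 7 arrays over the member probes, with 11 of 13 probes above every other array. The median over all tested probes was 1.36. Results for the member probes are therefore also given without KO 2, KO 3 or both. They are given where that changes a call or moves a value by over 1.5 times, and only in part for other genes of IGF signalling. Leaving out both KO 2 and KO 3 was chosen after the data were seen. The KO arrays lay in one row of the slide and the WT arrays in the other, so genotype and position on the slide cannot be told apart. The array has 1 tested probe of Dot1l itself, whose log2 difference of 0.18 ± 0.11 (SE) did not pass (limma adjusted p = 0.341). The sources used do not place that probe inside or outside the deletion, so it does not check the labels.

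**Figure D1:**
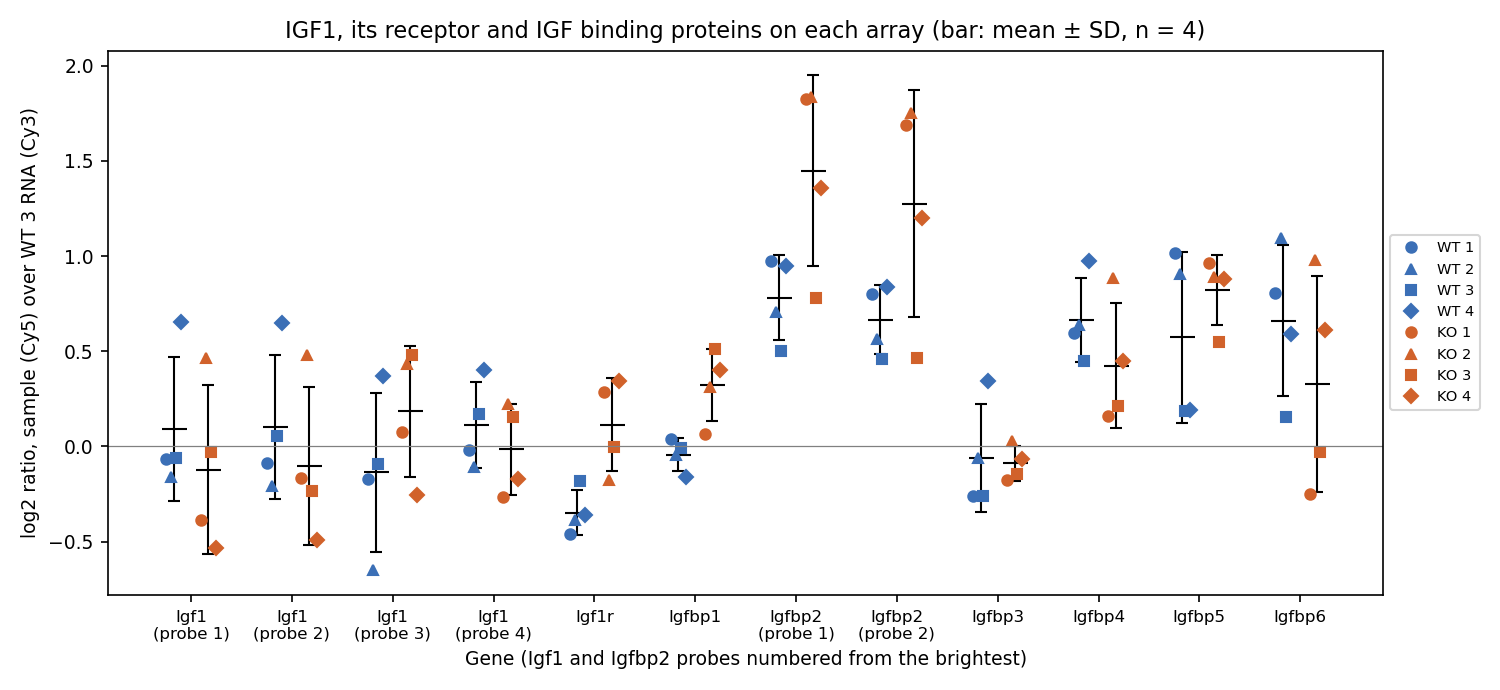
Log2 ratio of each sample (Cy5) to WT 3 RNA (Cy3) for the 12 tested probes, with 4 WT arrays in blue and 4 KO arrays in orange. Horizontal bars are group means and whiskers the SD (n = 4 per group). Igf1r and Igfbp1 separate the groups, Igfbp2 does so but for KO 3, and the other genes overlap.

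The receptor gene was measured by 1 probe. Igf1r (NM_010513), the receptor for IGF1 and IGF2, had log2 ratios of -0.46, -0.39, -0.183 and -0.36 on WT 1 to WT 4. On KO 1 to KO 4 it had 0.29, -0.176, -0.00076 and 0.34. The groups did not overlap, but the lowest KO array, KO 2, and the highest WT array, WT 3, were nearly equal. The WT mean was -0.35 ± 0.12 (SD, n = 4) and the KO mean 0.11 ± 0.24 (SD, n = 4). The log2 difference was 0.46 ± 0.13 (SE), a 1.38-fold higher ratio in KO, with a 95% interval from 0.18 to 0.75 and a limma adjusted p of 0.112.

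This value depended on KO 2. Without it the Igf1r difference was 0.56 and passed (limma adjusted p = 0.00980), in a fit where 21.1% of all probes passed and 9.71% passed as higher. Without both KO 2 and KO 3 it was 0.66 (adjusted p = 0.00356), where 23.5% of all probes passed and 13.2% as higher. Without KO 3 alone it was 0.50 and did not pass (adjusted p = 0.188), where 0.0253% of all probes did and 0.0158% as higher. Median centring of each array in place of loess, which moved the median difference of all probes from -0.02 to -0.28, gave 0.02 for Igf1r. Before normalisation, the Cy5 signal of the Igf1r spot was 3447, 2686, 3687 and 3105 on the WT arrays and 5737, 4416.5, 6268.5 and 4903 on the KO arrays, all of which were also brighter over all spots.

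Igfbp1 (NM_008341) encodes a small secreted binding protein whose gene is known in liver for its repression by insulin. Its log2 ratios were 0.04, -0.04, -0.0075 and -0.16 on WT 1 to WT 4. On KO 1 to KO 4 they were 0.06, 0.31, 0.51 and 0.40. Every KO array was above every WT array, with KO 1 close to WT 1 and KO 3 the highest. The means were -0.04 ± 0.09 (SD, n = 4) and 0.32 ± 0.19 (SD, n = 4), and the log2 difference was 0.37 ± 0.11 (SE), or 1.29-fold, with a 95% interval from 0.13 to 0.61. It did not pass (limma adjusted p = 0.118), nor did it without KO 2 (0.37, adjusted p = 0.0546), without KO 3 (0.30, adjusted p = 0.194) or without both (0.28, adjusted p = 0.125). With median centring the difference was 0.07.

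The 2 non-overlapping genes can be read against the background. Of the 28477 probes measured on all 8 arrays, 11.4% had no overlap between the groups, 3.58% higher in KO and 7.82% lower. Among the 8 member genes, at the brightest probe of each, 2 were higher without overlap and 0 lower. At an unadjusted p under 0.05 there were 4 of 12 member probes, of Igf1r, Igfbp1 and Igfbp2, where 23.8% of all probes reached it, 9.98% as higher and 13.8% as lower. The median difference over the 8 genes was 0.11 against -0.02 over all probes. It did not hold its size or sign, at 0.01 without WT 3, 0.16 without WT 2, -0.03 with no filter on dim probes, which adds Igfbp7, and -0.26 with median centring.

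Igfbp2 (NM_008342), a binding protein that is abundant in fetal tissues and can also attach to cell surface integrins, was read by a pair of probes. At the brighter probe the log2 ratios were 0.97, 0.71, 0.50 and 0.95 on WT 1 to WT 4, and 1.82, 1.84, 0.78 and 1.36 on KO 1 to KO 4. At the other probe they were 0.80, 0.57, 0.46 and 0.84 in WT, and 1.69, 1.75, 0.46 and 1.20 in KO. The probes gave the same picture, with KO 1 and KO 2 highest, KO 4 next and KO 3 inside the WT range, and the brighter exceeded the other by 0.04 to 0.32 on each array. KO 2, which lay with the WT arrays over all probes, was the highest array of all for Igfbp2.

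The brighter Igfbp2 probe had a WT mean of 0.78 ± 0.22 (SD, n = 4) and a KO mean of 1.45 ± 0.50 (SD, n = 4). The log2 difference was 0.67 ± 0.23 (SE), or 1.59-fold, with a 95% interval from 0.16 to 1.17 and a limma adjusted p of 0.137. At the other probe it was 0.61 ± 0.25 (SE, adjusted p = 0.187). Without KO 3 the differences were 0.89 and 0.88, and neither passed (adjusted p = 0.125 and 0.120). Without both KO 2 and KO 3 they were 0.81 and 0.78 and both passed (limma adjusted p = 0.0147 and 0.0131), where 23.5% of all probes passed and 13.2% as higher. Without KO 2 alone they were 0.54 and 0.45 and did not pass (adjusted p = 0.124 and 0.230), and with median centring they were 0.20 and 0.19. The Cy5 signal of the brighter probe was 5919 to 9411.5 on the WT arrays, against 16158, 19209, 10055 and 10369.5 on KO 1 to KO 4. KO 3 was inside the WT range after normalisation, and its median Cy5 signal over all spots was 636 against 93.5 to 107.5 on the WT arrays.

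**Figure D2:**
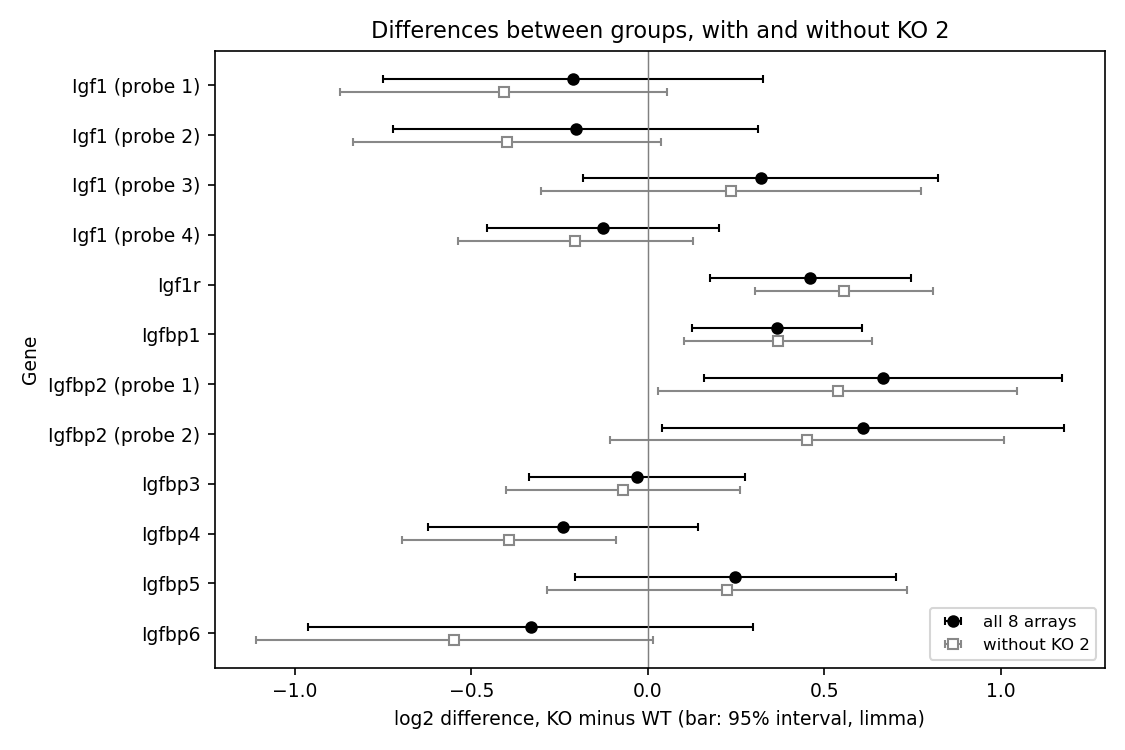
Log2 difference (KO minus WT) and 95% interval from limma for each tested probe, with all 8 arrays (filled) and without KO 2 (open). With all arrays the intervals of Igf1r, Igfbp1 and both Igfbp2 probes lie above 0 before adjustment, and without KO 2 that of Igf1r moves to a difference of 0.56.

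Igfbp5 lies next to Igfbp2 on chromosome 1 among protein-coding genes, as Igfbp1 and Igfbp3 lie next to each other on chromosome 11. Igfbp5 (NM_010518), which binds extracellular matrix as well as IGF, had log2 ratios of 1.02, 0.90, 0.18 and 0.19 in WT and 0.96, 0.89, 0.55 and 0.88 in KO. All KO values lay within the WT range, because WT 1 and WT 2 stood well above WT 3 and WT 4. The difference was 0.25 ± 0.20 (SE, limma adjusted p = 0.484), with a 95% interval that spans 0. It was -0.21 with median centring and 0.39 without WT 1. Leaving out either WT 3 or WT 4 gave 0.12, and none of these passed. Its neighbour Igfbp2 had its highest WT values on WT 1 and WT 4, and WT 4 was low for Igfbp5.

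Igfbp3 (NM_008343), the main carrier of IGF in blood, had log2 ratios of -0.26, -0.06, -0.26 and 0.34 in WT and -0.18, 0.03, -0.15 and -0.07 in KO. WT 4 was the highest array and the other 7 lay between -0.26 and 0.03. The difference was -0.03 ± 0.14 (SE, limma adjusted p = 0.915), with 0.10 without WT 4 and -0.097 without WT 1, so its sign depended on single arrays. It was -0.07 without KO 2, -0.01 without KO 3 and -0.06 without both. Its neighbour Igfbp1 had its lowest value on WT 4, where Igfbp3 had its highest.

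Igfbp4 (NM_010517), a binding protein that PAPP-A cleaves, had log2 ratios of 0.60, 0.64, 0.45 and 0.97 in WT. In KO they were 0.16, 0.88, 0.21 and 0.45. KO 1 and KO 3 lay below all WT arrays, KO 4 equalled WT 3 at this precision, and KO 2 lay above WT 1, WT 2 and WT 3. The difference was -0.24 ± 0.17 (SE, limma adjusted p = 0.418), and it was -0.39 without KO 2 (adjusted p = 0.0684). Without WT 4 it was -0.14 and without KO 1 -0.15, and none of these passed. Without both KO 2 and KO 3 it was -0.36 (adjusted p = 0.131).

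Igfbp6 (NM_008344), which prefers IGF2 to IGF1, had log2 ratios of 0.81, 1.09, 0.15 and 0.59 in WT and -0.25, 0.98, -0.03 and 0.61 in KO. KO 1 and KO 3 were the lowest arrays and WT 2 and KO 2 the highest. The difference was -0.33 ± 0.28 (SE, limma adjusted p = 0.498), and 1 array left out moved it both ways. It was -0.55 without KO 2 and -0.50 without WT 3, but -0.14 without KO 1, -0.19 without WT 2 and -0.21 without KO 3, and none of these passed.

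Igfbp7 encodes a relative with low affinity for IGF, also known as a protein of vessel walls. Its single probe (NM_001159518) was not well above background in either channel on any of the 8 arrays. The Cy5 signal was 66 to 71 on the WT arrays over local backgrounds of 60 to 64, and 67 to 112 on the KO arrays over 64 to 75. No fold is given for it.

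The ligand gene Igf1 (NM_010512) was read by 4 probes of 2 spots each, numbered here from the brightest. At probe 1 the log2 ratios were -0.07, -0.16, -0.06 and 0.65 in WT and -0.39, 0.47, -0.03 and -0.54 in KO. WT 4 and KO 2 were high, KO 1 and KO 4 were low, and the groups overlapped. The difference was -0.21 ± 0.24 (SE, limma adjusted p = 0.619), with a 95% interval from -0.75 to 0.33. Without KO 2 it was -0.41 and without both KO 2 and KO 3 -0.55, but -0.02 without WT 4, -0.07 without KO 4 and -0.12 without KO 1, and none of these passed. Probes 2 and 4 had differences of -0.20 and -0.13, neither of which passed, and without WT 4 they were -0.02 and -0.03. Without KO 2 they were -0.40 and -0.21, and without both KO 2 and KO 3 -0.43 and -0.33, and none of these passed.

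Probe 3 of Igf1 followed another order. Its log2 ratios were -0.17, -0.65, -0.09 and 0.37 in WT and 0.08, 0.43, 0.48 and -0.25 in KO, with a difference of 0.32 ± 0.22 (SE, limma adjusted p = 0.411). This became 0.15 without WT 2, 0.49 without WT 4, 0.05 without both KO 2 and KO 3, and -0.063 with Cy5 alone. Set against the mean of the other 3 probes within each array, probe 3 was lower by 0.11, 0.49, 0.15 and 0.20 on WT 1 to WT 4. On KO 1 to KO 4 it was higher by 0.35, 0.05, 0.51 and 0.15. The contrast was chosen for this pattern, and its share among other genes with several probes was not computed.

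That contrast differed by 0.50 between the groups (p = 0.0286 by a 2-sided exact permutation test, which can give no smaller p with 4 arrays against 4), higher on 4 of 4 KO arrays. It was noticed after the values were seen, and over the 4 probes the Benjamini-Hochberg adjusted p was 0.114. It was 0.42 without WT 2 (exact permutation p = 0.0571) and 0.42 to 0.84 over the 21 alternatives that keep the probes apart. Which part of the Igf1 transcripts each probe matches is not given in the sources used, and the cause was not tested.

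**Figure D3:**
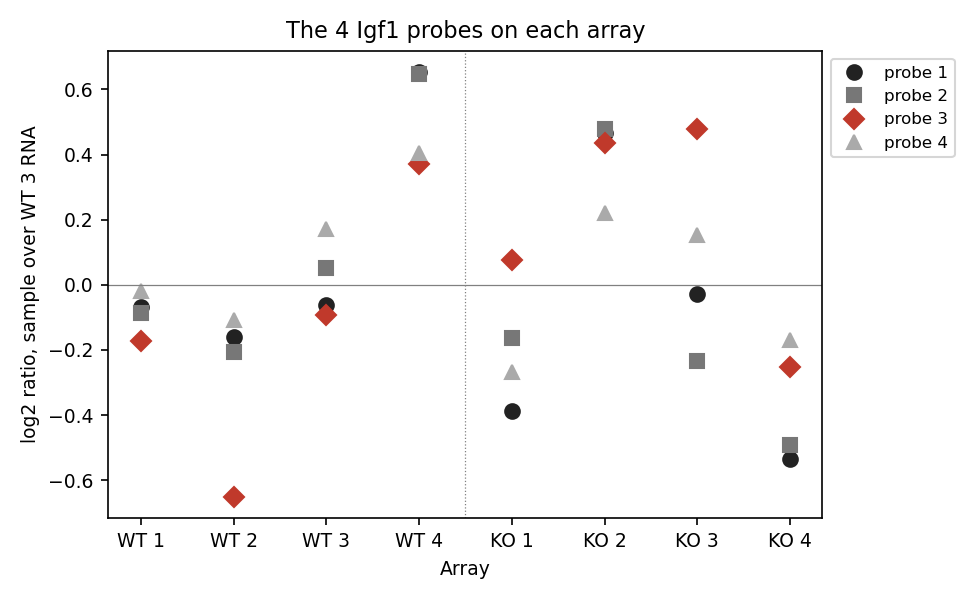
Log2 ratio to WT 3 RNA of the 4 Igf1 probes on each array, WT left and KO right of the dotted line. Probe 3 (red diamonds) lies below the mean of the other probes on all 4 WT arrays and above it on all 4 KO arrays, by 0.05 on KO 2.

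The members did not move as one across the arrays. Over the 8 arrays, which share the WT 3 reference, the correlation between 2 members ran from 0.79 (Igf1 and Igfbp4) to -0.65 (Igf1r and Igfbp4). Igfbp4 also had 0.77 with Igfbp6 and 0.72 with Igfbp3. For the neighbours Igfbp2 and Igfbp5 it was 0.57, and for Igfbp1 and Igfbp3 it was -0.25. These are descriptions over few arrays and in part reflect the groups themselves.

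Likeness was searched among 17462 probes with a gene symbol and complete values. These exclude symbols in the form of clone or accession names, and ordinary symbols of like form. The probes most like each member over the same 8 arrays were named by a fixed rule of the highest Pearson correlation. For Igf1r these were Cipc (r = 0.99), a regulator of the circadian clock, Frs2 (0.99), an adaptor of FGF receptors, and Mapk1ip1 (0.98), with log2 differences between KO and WT of 0.46, 0.60 and 0.41. For Igfbp1 they were Klf15 (0.99), a transcription factor of fasting metabolism, Vdac3 (0.97), a mitochondrial channel, and Cttnbp2 (0.96). For Igfbp2 they were Fgf18 (0.97), a growth factor, Satb1 (0.97), a chromatin organiser, and Fam102b (0.96). Igfbp4 was closest to Mef2d (0.98), Igfbp3 to Rgl2 (0.95) and Igfbp5 to Igdcc4 (0.95). Igfbp6 was closest to Axl (0.99), a receptor tyrosine kinase, Wnt4 (0.98) and Serping1 (0.97). The highest r of a member ran from 0.95 to 0.99, so a high r does not mark out any one of them.

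In a sorted population, fewer cells of a type and less RNA per cell cannot be told apart, and transcripts of other kidney cells were present. All 12 listed markers of ureteric bud and collecting duct, among them Ret, Gata3 and Cdh1, were well above background on all 8 arrays, and so were 11 of 12 markers of stroma and smooth muscle and 8 of 8 of endothelium. None of these markers was below background on every array. No gene of these lists passed between KO and WT.

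Some members shared their highest or lowest arrays with such lists. The median log2 ratio of the 12 stromal markers, such as Col1a1 and Pdgfrb, was 1.01, 0.96, 0.03 and 0.83 on WT 1 to WT 4 and -0.09, 1.25, 0.25 and 0.57 on KO 1 to KO 4, a range of 0.03 to 1.01 against -0.09 to 1.25. The 3 arrays lowest for this list, KO 1, WT 3 and KO 3, were also the 3 lowest for Igfbp6. This was not particular to stroma. The nephron progenitor median was lowest on the same 3 arrays, at -0.45, 0.09 and 0.14. It was highest on WT 2, as Igfbp6 was, while the stromal median was highest on KO 2. The median of the 8 endothelial markers, such as Pecam1 and Kdr, ran from -0.26 to 1.05 in WT and from 0.21 to 0.48 in KO, and WT 4, its highest array, was also highest for Igfbp3, Igfbp4 and Igf1 probe 1. Other arrays went against this for Igf1 and Igfbp4. The endothelial median was 0.24, 0.40 and 0.21 on KO 1, KO 3 and KO 4, above WT 1, WT 2 and WT 3. Yet Igf1 probe 1 was lowest on KO 4 and KO 1, and Igfbp4 on KO 1 and KO 3. The part of these cells in the values of those members was not tested.

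For Igf1r part of the order was the reverse of the stromal list. KO 2, highest for that list, was the lowest KO array for Igf1r, and WT 3, the lowest WT array for the list, was the highest WT array for Igf1r. KO 4 went against this, with a stromal median of 0.57 and the highest Igf1r value. The ureteric bud median was -0.02 to 0.17 in WT and -0.48 to 0.06 in KO, lowest on KO 3 and KO 4, the 2 arrays on which Igfbp1 was highest. The markers of that list did not move as one. Krt18, Krt8, Cdh1 and Wnt9b had differences of 0.79, 0.30, 0.21 and 0.12, and the other markers had differences below 0. Krt18 was itself highest on KO 3 and KO 4, at 0.88 and 0.69.

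The list median of immune cell markers lay lower on every KO array than on every WT array, by little between WT 4 and KO 2. The median of the 7 tested markers of macrophages and neutrophils, such as Lyz2 and S100a8, was 0.08, 0.19, 0.05 and -0.294 on the WT arrays. On the KO arrays it was -0.43, -0.299, -0.34 and -0.36. Of these markers 7 of 7 had a difference below 0, as had 8619 of the 15112 genes with a symbol. The differences were uneven, from -0.01 for Csf1r and -0.06 for Ptprc to -1.20 for S100a9 and -1.45 for S100a8. The nephron progenitor median was 1.00, 1.22, 0.09 and 0.30 in WT and -0.45, 0.73, 0.14 and 0.40 in KO. The part of either list in the differences of Igf1r, Igfbp1 and Igfbp2 was not tested.

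**Figure D4:**
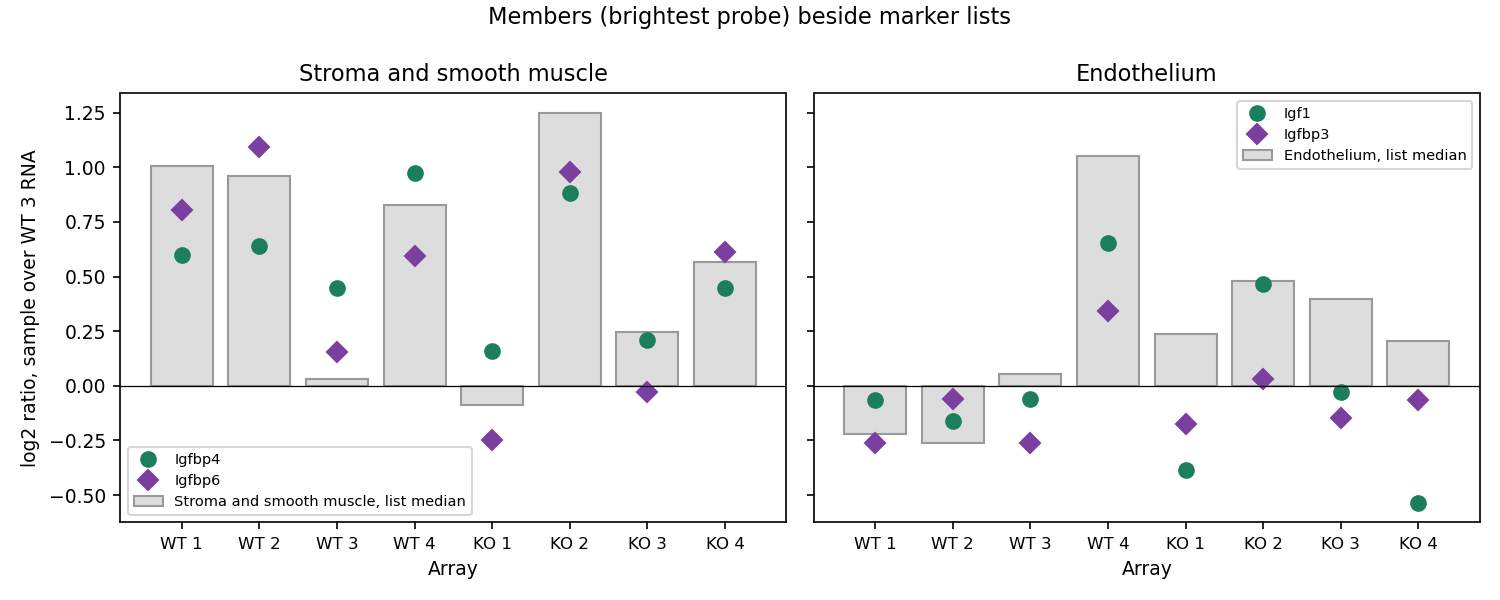
Grey bars give the median log2 ratio to WT 3 RNA of 12 stromal and smooth muscle markers (left) and 8 endothelial markers (right) on each array, and points give members at their brightest probe. Igfbp6 is low on KO 1, KO 3 and WT 3, as are the stromal median and the nephron progenitor median, which is not drawn. Igf1 and Igfbp3 are highest on WT 4, as the endothelial median is.

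The wider pathway gave no member that passed either. Of 55 listed genes of IGF signalling other than the members, 51 were tested, with 24 differences above 0 and 27 below, and 0 passed limma's adjusted test. At an unadjusted p under 0.05 there were 8 higher and 9 lower, or 33.3%, against 24.7% of the 15112 genes with a symbol. Of 46 with values on all arrays, 1 lay higher and 4 lower in KO without overlap, or 10.9% against 12% of all genes. Their median difference was -0.03, and -0.04 over all genes. Adjusted p-values in what follows are limma's over all probes.

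Among ligands, Igf2, the fetal growth factor expressed from the paternal allele, had log2 ratios of 1.93, 2.14, 1.87 and 3.097 in WT and 0.90, 2.12, 0.71 and 1.00 in KO. KO 1, KO 3 and KO 4 lay below every WT array and KO 2 lay among them. The difference was -1.07 ± 0.34 (SE, adjusted p = 0.128), and without KO 2 it was -1.39 and passed (adjusted p = 0.00864), where 21.1% of all probes did. WT 3 read 1.87 against its own RNA. Ins2 had a difference of 0.08 over 3 KO arrays. Among receptors, Igf2r, which clears IGF2, had 0.17 and the insulin receptor relative Insrr -0.19. Without KO 2 they had 0.23 and -0.03.

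Of 7 tested partners and relatives of the binding proteins 4 had differences above 0, and of 6 proteases and protease inhibitors 4. Htra1, a serine protease listed with the relatives for its IGF-binding-protein-like domain, had log2 ratios of -0.14, -0.46, -0.43 and 0.02 in WT and 0.43, 0.31, 0.08 and 0.48 in KO, with no overlap. Its difference was 0.58 ± 0.13 (SE, adjusted p = 0.103). Pappa, the metalloprotease that cleaves the product of Igfbp4, had 0.39 ± 0.13 (SE, adjusted p = 0.131), and Stc2, an inhibitor of PAPP-A, had 0.39 ± 0.12 over 3 KO arrays (adjusted p = 0.128). Without KO 2 these 3 passed, with differences of 0.59, 0.51 and 0.53 (adjusted p = 0.0244, 0.00841 and 0.00745), in the fit where 21.1% of all probes passed and 9.71% as higher. Stc2 had no value on KO 3, so its difference in that fit rests on KO 1 and KO 4 only. Ccn2, a matrix protein with an IGF-binding domain, had 0.52 ± 0.23 (SE, adjusted p = 0.207).

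Downstream of the receptor, Grb10, an adaptor that restrains IGF1R and the insulin receptor and is imprinted, had log2 ratios of 0.07, 0.49, 0.24 and 0.26 in WT. On KO 1, KO 2 and KO 4 it had -1.08, -0.25 and -1.08, and KO 3 was dropped because it had no value free of an outlier mark. The difference was -1.07 ± 0.21 (SE, adjusted p = 0.101), below every WT array on 3 of 3 KO arrays, and -1.35 without KO 2 (adjusted p = 0.00110), in that same fit. Without KO 2 the Grb10 difference rests on KO 1 and KO 4 only. Irs1, a substrate of the receptor, had 0.34 at the brighter probe and -0.03 at the other. Tsc1, an inhibitor of mTORC1, had 0.65 ± 0.20 and Pik3r2, a PI3 kinase subunit, -0.48 ± 0.14 (SE, adjusted p = 0.120 and 0.118).

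Among the transcription factors Foxo4, which AKT keeps out of the nucleus, lay lower on 4 of 4 KO arrays, with a difference of -0.23 ± 0.07 (SE, adjusted p = 0.124) and -0.19 at its other probe. Foxo1 had -0.13. Igf2bp2, an RNA binding protein of Igf2 mRNA, had 0.19, 0.12, -0.02 and 0.20 in WT and -0.50, -0.33, -0.35 and -0.14 in KO. These groups did not overlap, KO 2 included. The difference was -0.45 ± 0.10 (SE, adjusted p = 0.101) and -0.44 at its other probe. Igf2bp3 had -0.22. Tsc1, Pik3r2, Foxo4 and Igf2bp2 also passed without KO 2, at 0.83, -0.64, -0.25 and -0.45, in the fit where 21.1% of all probes did. Other genes of the list, not named here, passed in that fit too, and the share of the list that passed was not computed. Irs1 passed without both KO 2 and KO 3, at 0.36 (adjusted p = 0.0317), where 23.5% of all probes did.

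**Figure D5:**
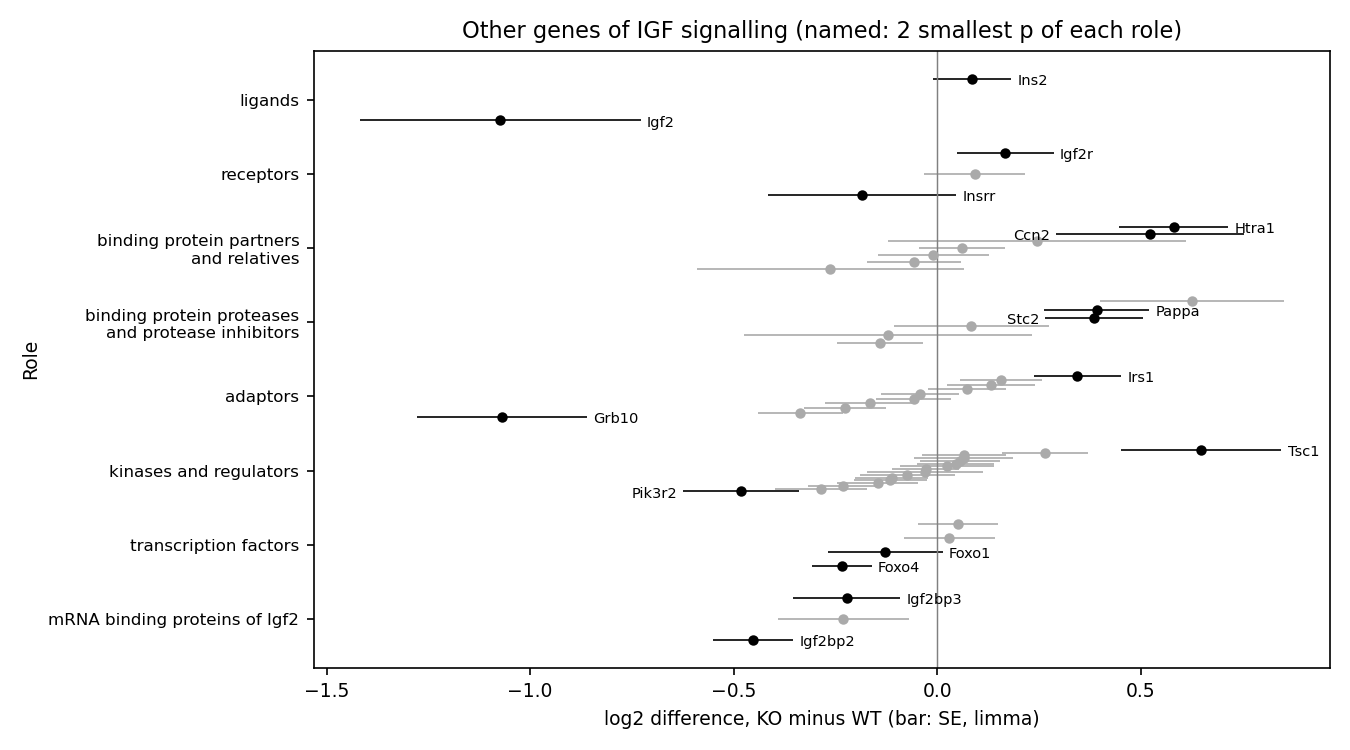
Log2 difference (KO minus WT, bars are SE from limma) of 51 tested genes of IGF signalling by role, with the 2 genes of smallest p in each role in black and named. Differences lie on both sides of 0, Igf2 and Grb10 are the lowest at -1.07, and none passed the adjusted test.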

How the data were processed

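Per the submitters' processing notes, the authors ran Agilent Feature Extraction 10.7.3.1. Its deposited output holds the Cy5 and Cy3 intensity of each spot. The deposited series values are log10 ratios of Cy5 over Cy3 and served as an alternative. Their columns had a median of 0, and 0.0152 on KO 3. The scanner's own deposited LogRatio is also log10. Members and gene lists were chosen with earlier results of these data known. In limma 3.58.1 (R 4.3.3, jsonlite 2.0.0 and release 1.17.8 of data.table) median intensities (mean signals were not used) were corrected with normexp (offset 50), and log2 ratios were loess-normalised within arrays, with control spots at weight 0 and outlier-marked spots left out. Spots of a probe were averaged. Tested probes had Cy5 well above background on 4 or more of 8 arrays and 3 or more values per group. KO and WT were compared with lmFit and eBayes, 2-sided, and Benjamini-Hochberg adjustment over 31667 probes. Transcript names were matched to RefSeq (GRCm38.p6), 21717 of 37850, while the array annotation is for mm9. Where 1 probe stands for a gene it is the brightest. Named genes are all members, the targeted gene, the 2 pathway genes of smallest p in each role, and, of the 3 probes most like each member, 1 or more per member (those of Igf1 are not reported here). Cell type markers are named as examples of their lists. The code was tested on simulated data. Each sample gave 0.5 µg of total RNA per labelling, and the number of arrays limits the precision. Figures were drawn with matplotlib 3.10.9 under Python 3.11.15. The alternatives, 22 planned and 1 added, are the offset, no background subtraction, the scanner ratio, the series values, median centring, scaling, Cy5 alone, filters, an intensity trend, array weights, gene-level fits, a replicate block and arrays left out.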

Additional observations from a re-analysis of the deposited data

Results flagged for a closer look

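Of 53 groups of 4 arrays checked for an array far from the others, 1 stood out. Igf1 probe 1 (A_55_P2031631) had a log2 ratio of 0.65 on WT 4, while the other WT arrays lay between -0.16 and -0.06. The gap was 0.88 of the range of the group. Chance marks about 1 in 20 such groups.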

How the results depend on the processing

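Over 23 alternatives, 256 of 268 comparisons of a member probe with an alternative kept direction and side of the threshold, 7 newly passed, 0 ceased to pass and 5 changed sign. Those that newly passed were Igf1r and Igfbp2 (both probes) with array weights (limma adjusted p = 0.0137, 0.0311 and 0.0454) and without both KO 2 and KO 3, and Igf1r without KO 2. Of all 31667 tested probes, 5949 passed with array weights, 3034 of them as higher. Without both KO 2 and KO 3 it was 7436, and without KO 2 6692. Array weights gave KO 2 0.35 and KO 3 0.47, against 1.08 to 1.77 for the others. The changes of sign were at differences that did not pass in either setting. Igfbp3 became 0.0014 with the scanner ratio, 0.00091 with the series table and 0.10 without WT 4, Igfbp5 became -0.21 with median centring, and Igf1 probe 3 became -0.063 with Cy5 alone. In the pathway, Ins2 became -0.020 and Igf2r -0.23 with median centring, Ins2 -0.15 with Cy5 alone, and Insrr 0.010 both without WT 3 and without KO 2 and KO 3. With 1 array left out Igfbp3 ran from -0.097 to 0.10 and Insrr from -0.32 to 0.010. The cause was not tested.

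Member genes past the threshold numbered 2 with array weights, 2 without KO 2 and KO 3, and 0 to 1 with 1 array left out. Member genes without overlap numbered 0 with median centring and 5 without KO 2 and KO 3. The share of all probes without overlap was not computed in either setting. With fewer KO arrays the groups separate more easily, so these counts are not a result about the members. The member median was -0.26 with median centring, -0.03 with no filter and 0.01 to 0.16 with 1 array left out, and the pathway median -0.30 with median centring and -0.21 with Cy5 alone. Those settings moved the median of all probes to -0.28 and -0.18. Probes past the threshold in all, 2 as reported, numbered 1 with an offset of 0, with no background subtraction and with the mean over probes, 5 with the scanner ratio and the series table, and 0 with median centring and Cy5 alone. They numbered 6 with scaling, 4 without the filter, 17 with the intensity trend, 5949 with array weights and 7436 without KO 2 and KO 3. With 1 array left out they ran from 1 to 6692, the highest without KO 2, and numbered 8 without KO 3 and 4 without WT 3. Replicate numbers did not pair the samples, with correlations of same-numbered deviations of -0.21, 0.05, 0.11 and -0.01, and with the replicate number as a block 0 probes passed.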
